A study of Mus musculus with 20 samples.

Results

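The complement genes examined here are 33 genes that encode components, regulators and receptors of the complement system. They were taken by gene symbol from a written list, which was drawn up with earlier results of these data known. All 33 were among the 45777 genes listed for the mouse uterus, and 32 of them were among the 18706 genes listed above 0 TPM (transcript abundance corrected for length and scaled to a fixed library total) in every library and therefore tested. The exception was Cfd. RNA of 1 uterine horn from each of 20 mated wild-type (WT) B6D2F1 females aged 8 to 12 weeks was sequenced, with 1 library per mouse and 5 mice in each of 4 groups, and every horn was taken at 18:00 on day 3.5 of pregnancy, where day 0.5 is the morning of the vaginal plug. Control mice received no agent. Mice of the implantation failure (IF) group were given RU486 (mifepristone), a blocker of the progesterone and glucocorticoid receptors, under the skin on the morning of day 3.5. The PBMC group had the same RU486 and also peripheral blood mononuclear cells of non-pregnant mice, cultured without human chorionic gonadotropin (hCG) and placed in the uterus on day 1.5. In the PBMC-hCG group the cells had been cultured with hCG. RU486 was thus shared by the IF, PBMC and PBMC-hCG groups. Mice given medium without cells were not analysed here, so an effect of the cells cannot be told apart from that of the intrauterine administration itself.

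Complement is a cascade of plasma and tissue proteins that marks surfaces for removal. The classical pathway starts with C1q and its proteases C1r and C1s, the lectin pathway with the MASP proteases, and the alternative pathway with factors B and D and properdin, and all of them lead to cleavage of C3 and then C5 and to the terminal pore. Host cells restrain the cascade with soluble and membrane-bound regulators. In the rodent uterus, C3 is known as a secreted product of the epithelium that responds to estrogen, and membrane regulators such as Crry are known to guard the conceptus.

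The deposited values were TPM, which add up to 999989 to 999999 in each library, so the number of reads behind them is unknown, and counting errors and detection limits are not given. The uterine markers Pgr, Esr1, Hoxa10 and Hoxa11 were present, at means of 107, 144, 183 and 136 TPM over the 20 mice. One library stood apart. Control replicate 2 had a median correlation of 0.963 with the other control mice, against 0.980 to 0.990 within groups for the other 19 libraries, and its summed adipose markers stood at 175 TPM, against at most 23.2 TPM in any mouse of the other groups. Its highest gene was Rn18s-rs5, an 18S ribosomal RNA-related sequence, at 22186 TPM. That gene was also the highest in control replicate 5 (15335 TPM) and IF replicate 2 (13899 TPM), whereas Eef1a1 was the highest in the other libraries. Comparisons with the control group are therefore given below also without control replicate 2. Groups were compared with limma on log2(TPM + 0.1), all 4 groups in 1 fit, and a gene was called at a Benjamini-Hochberg adjusted p under 0.05 over all 18706 genes. Fold changes are given on the log2(TPM + 0.1) scale with their standard errors, and the pseudocount of 0.1 understates the changes of genes at low TPM.

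Several of the genes are neighbours. On the mm10 (GRCm38) genome, C1s1 lies at chr6:124530344-124542392, C1ra at chr6:124512621-124523440 and C1rl at chr6:124493113-124510643, and C2 (chr17:34862602-34882100) and Cfb (chr17:34856374-34862514) follow each other within the major histocompatibility complex. C3 lies at chr17:57203967-57228136, C1qbp at chr11:70977846-70983026, Cd55 at chr1:130429798-130465009, Cd93 at chr2:148436651-148443535 and Masp1 at chr16:23451785-23521240. Promoter windows from RefSeq (GRCm38.p6) were matched for 23 of the 33 genes, each taken as the 250 bases before the first start listed for the gene. The windows given here are those of C1ra and C1s1, neighbours that were both higher in PBMC-hCG than in IF and control, of C3, and of C1qbp, which moved the other way, each 5′ to 3′ on the strand of its gene and cut where an annotated gene begins. They cover chr6:124512371-124512620 (plus strand), chr6:124542393-124542609 (minus strand), chr17:57228137-57228386 (minus strand) and chr11:70983027-70983276 (minus strand). Capitals mark matches to the motifs named in the next paragraph.
C1ra: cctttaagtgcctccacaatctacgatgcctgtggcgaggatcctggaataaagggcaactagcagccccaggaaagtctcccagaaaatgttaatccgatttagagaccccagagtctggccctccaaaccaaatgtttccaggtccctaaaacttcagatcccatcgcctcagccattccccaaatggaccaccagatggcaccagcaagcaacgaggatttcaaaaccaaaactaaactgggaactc
C1s1: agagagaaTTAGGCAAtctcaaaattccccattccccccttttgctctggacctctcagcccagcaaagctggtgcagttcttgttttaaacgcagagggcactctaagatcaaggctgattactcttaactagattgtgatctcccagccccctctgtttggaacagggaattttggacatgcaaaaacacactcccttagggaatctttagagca
C3: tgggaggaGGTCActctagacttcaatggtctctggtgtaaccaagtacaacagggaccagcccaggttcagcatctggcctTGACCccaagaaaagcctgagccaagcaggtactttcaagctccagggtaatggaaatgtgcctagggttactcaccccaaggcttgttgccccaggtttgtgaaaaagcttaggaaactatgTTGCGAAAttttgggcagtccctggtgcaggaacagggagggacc
C1qbp: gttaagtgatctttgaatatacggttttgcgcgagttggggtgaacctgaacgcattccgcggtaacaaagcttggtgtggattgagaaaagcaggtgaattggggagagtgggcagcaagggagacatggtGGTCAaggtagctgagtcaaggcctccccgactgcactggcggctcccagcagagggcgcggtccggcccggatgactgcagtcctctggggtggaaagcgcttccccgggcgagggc

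4 motifs were searched on both strands. The C/EBP motif TTGCNNAA was found in 4 of the 23 windows (C1rl, C1s1, C5ar2 and C3) and in 7.91% of the 13072 windows of all tested genes. GGTCA, the letters of 1 arm of an estrogen response element, was found in 12 of the 23 and in 33% of all windows, and these matches include any within a full element. In an earlier search, the full estrogen element and the progesterone and glucocorticoid response element matched none of the 23 windows. No share over all windows is at hand for that search, so this absence cannot be judged. TTCNNNGAA, a STAT motif, was found in the windows of Masp2 and C7 and in 5.99% of all windows. The NF-kB motif was found in 1 of the 23 windows, that of C1qc, and in 8.64% of all windows. This form of the NF-kB motif, which holds mixed bases, replaced another after that one had been searched. The other form matched the windows of Cd55, C3ar1 and C5ar2, and no share over all windows is at hand for it. In the windows shown, C3 holds GGTCA and its complement TGACC once each and 1 C/EBP match, C1s1 holds 1 C/EBP match, C1qbp holds 1 GGTCA, and C1ra holds none of the 4 motifs. A match describes letters only.

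Per unit of transcript length, the uterine levels of the genes spanned a wide range. The highest means over the 20 mice were those of Serping1 (606 TPM), Clu (417 TPM), C1s1 (309 TPM) and C3 (268 TPM). The 3 chains of C1q lay close together, at 219.8, 207 and 211 TPM for C1qa, C1qb and C1qc. Lowest among the tested genes were Masp2 (0.15 TPM) and Hc (0.252 TPM). The terminal components C6, C7 and C8g also stayed low, at means of 1.48, 1.23 and 1.48 TPM.

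**Figure D1:**
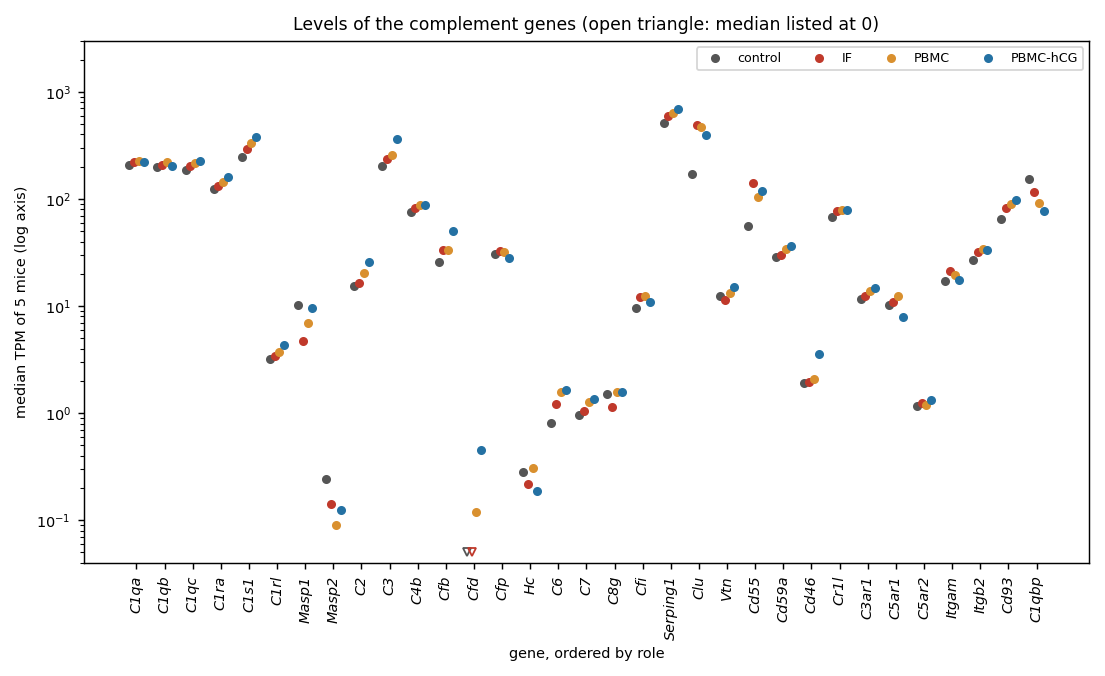
Median TPM of the 5 mice of each group (log axis) for the 33 complement genes, ordered by role, with an open triangle where the median is listed at 0. Serping1, Clu, C1s1 and C3 lie at the top, Masp2 and Hc near the bottom, and for most genes the 4 groups lie close together beside the differences between genes.

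RU486 alone was followed by a small set of changes that ran in both directions. When IF was compared with control, 7 of the 32 complement genes passed (4 higher and 3 lower), beside 21.9% of all tested genes, 13.4% higher and 8.53% lower. C1s1, Serping1, Cd55 and Cd93 were higher in the IF group, and Masp1, Masp2 and C1qbp were lower. In 5 of the 32 genes the 2 groups did not overlap, beside 12.8% of all tested genes. The median log2 fold change was 0.13 over the complement genes and 0.02 over all tested genes. Without control replicate 2, 8 of the complement genes passed, 6 of them among the 7, beside 26.8% of all tested genes.

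PBMCs cultured without hCG were followed by no called change against the IF group. Here 0 of the 32 complement genes passed in limma's test, beside 0% of all tested genes, and 0 of them had an unadjusted p under 0.05, beside 6.79% of all tested genes. The median log2 fold change was 0.08 over the complement genes and 0.02 over all tested genes. In 0 of the 32 genes the groups did not overlap, beside 1.01% of all tested genes.

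PBMC-hCG treatment was followed by higher levels of 5 complement genes and a lower level of 1. Against the IF group, 6 complement genes passed (C1ra, C1s1, Masp1, C2 and C3 higher, C1qbp lower), beside 13.6% of all tested genes, 7.61% higher and 5.99% lower. The groups did not overlap in 5 of the 32 genes, beside 7.24% of all tested genes, and the median log2 fold change was 0.15 over the complement genes and 0.05 over all tested genes. These calls hang on the full set of mice. Leaving out any 1 of IF replicates 2, 4 and 5 or of PBMC-hCG replicates 2 to 5 left 0 complement genes called and at most 0.182% of all tested genes, whereas leaving out IF replicate 3 gave 12, beside 27.1% of all tested genes. Over all alternatives the log2 fold change stayed between 0.57 and 0.75 for C2 and between 0.54 and 0.73 for C3. Set directly against the PBMC group, PBMC-hCG gave 0 called complement genes in limma's test, beside 0.0107% of all tested genes, and 8 with an unadjusted p under 0.05, beside 16.2% of all tested genes.

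The PBMC and PBMC-hCG groups were also set against the same control mice, which the comparison of IF with control shares. Between PBMC and control, 9 complement genes passed (6 higher and 3 lower), beside 19.5% of all tested genes, 12.8% higher and 6.7% lower. Between PBMC-hCG and control, 17 passed (15 higher and 2 lower), beside 31.8% of all tested genes, 20.2% higher and 11.6% lower. The groups did not overlap in 4 and 9 of the 32 genes, respectively, beside 12.7% and 18.3% of all tested genes. Median log2 fold changes over the complement genes were 0.20 for PBMC and 0.32 for PBMC-hCG, beside 0.05 and 0.08 over all tested genes. Without control replicate 2, 9 and 16 complement genes passed, beside 24.7% and 40.2% of all tested genes. The study's own criteria were a fold change of at least 2 and an unadjusted p under 0.05. Applied here to limma's values on log2(TPM + 0.1), not to the study's test on counts, they were met by 0 complement genes in all 6 comparisons. Masp2, with means of 0.278 TPM in control and 0.107 TPM in IF, lies where the pseudocount understates the fold change. Of all tested genes, those criteria were met by 4.03% between IF and control, 0.438% between PBMC and IF, 2.31% between PBMC-hCG and IF, 0.893% between PBMC-hCG and PBMC, 3.34% between PBMC and control and 4.74% between PBMC-hCG and control.

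**Figure D2:**
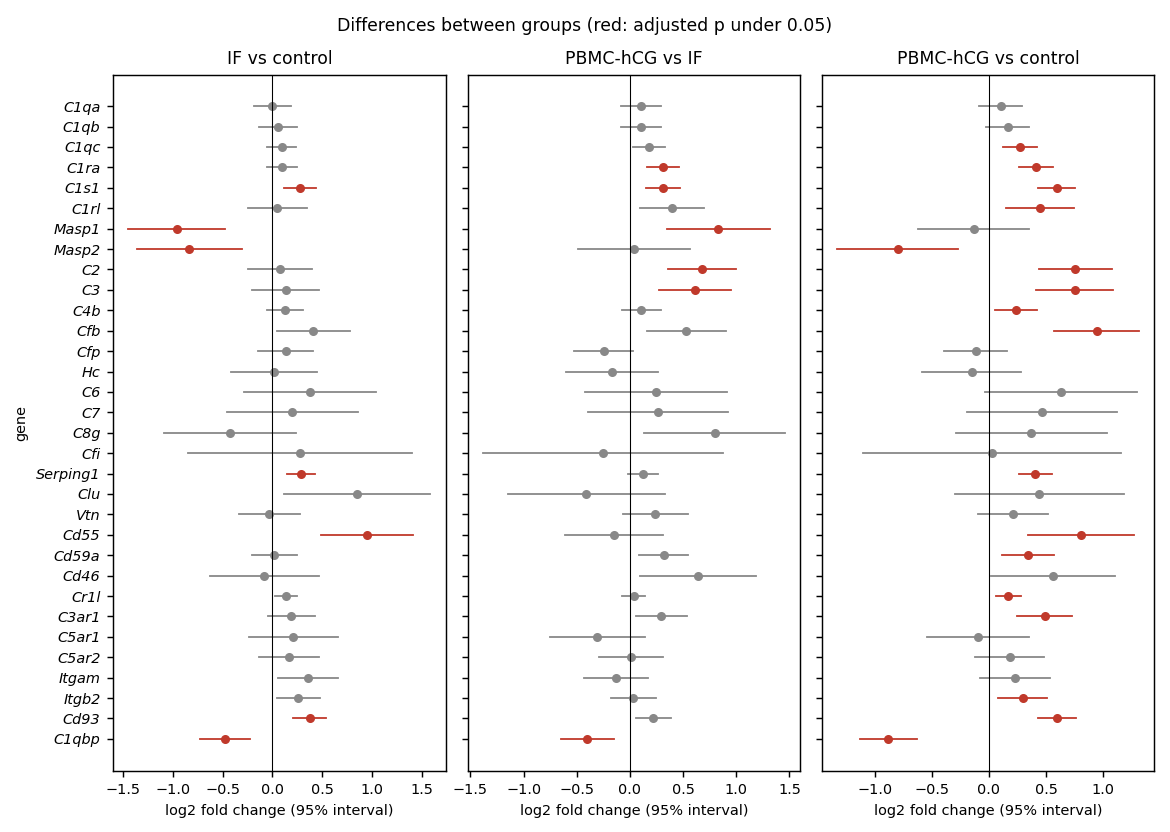
Log2 fold change with its 95% interval for the 32 tested complement genes in 3 comparisons, ordered by role, with red for an adjusted p under 0.05. The IF against control panel holds 7 red points, PBMC-hCG against IF 6 and PBMC-hCG against control 17, and in the last panel the 2 red points on the negative side are Masp2 and C1qbp.

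Group means of log2(TPM + 0.1) often followed 1 order. In 12 of the 32 genes this mean rose from control over IF and PBMC to PBMC-hCG, beside 13.9% of all tested genes. These were C1qc, C1ra, C1s1, C1rl, C2, C3, C4b, C6, Cd59a, Cr1l, C3ar1 and Cd93. Means of TPM itself rose in that order for C1qa and Serping1 as well. Only C1qbp among the 32 genes had log2 means that fell in that order, beside 8.06% of all tested genes. The PBMC-hCG group had the highest log2 mean in 20 of the 32 genes, beside 37.5% of all tested genes. Not every step in this order passed the test, and no complement gene passed between PBMC and IF or between PBMC-hCG and PBMC.

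C1q, the recognition molecule of the classical pathway, is assembled from 3 chains that are made mainly by macrophages. Mean C1qa was 212 ± 18.5 TPM without RU486 and 212 ± 20.1 TPM with RU486 alone (SD, n = 5). Its mean was 226 ± 11.6 TPM in the PBMC group and 229 ± 36.3 TPM in the PBMC-hCG group. Neither C1qa nor C1qb passed in any comparison. C1qc ranged from 169 to 214 TPM in the control mice, from 215 to 230.0 TPM in the PBMC mice and from 208 to 269 TPM in the PBMC-hCG mice. Its log2 fold change was 0.22 ± 0.07 between PBMC and control (adjusted p = 0.032) and 0.27 ± 0.07 between PBMC-hCG and control (adjusted p = 0.0064). The first of these was, without control replicate 2, 0.18 (adjusted p = 0.066). Of 6 macrophage markers, 2 (Csf1r and Adgre1) were higher both in IF and in PBMC-hCG than in control, and 0 passed between PBMC and control or between PBMC-hCG and IF. The part of these markers in the result for C1qc was not tested, and their summed TPM was 186 to 218 in the control mice, 211 to 239.6 in the IF mice, 213 to 228 in the PBMC mice and 207 to 264 in the PBMC-hCG mice. In bulk tissue, fewer cells of a type and less RNA per cell cannot be told apart.

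Of the C1 protease genes, C1s1 was called in 4 comparisons, C1ra in 2 and C1rl in 1. C1s1 encodes C1s, which cleaves C4 and C2 once C1r has activated it. C1s1 was listed at 246, 240.3, 262, 248 and 233 TPM in the control mice and at 306, 295, 344, 283 and 268 TPM in the IF mice. Among the PBMC mice the values were 349.7, 333, 298, 354 and 265 TPM, and among the PBMC-hCG mice 335, 393, 389, 377 and 360.4 TPM. Every mouse of the 3 RU486 groups lay above every control mouse. Against control the log2 fold change was 0.28 ± 0.08 for IF (adjusted p = 0.014), 0.38 ± 0.08 for PBMC (adjusted p = 0.0021) and 0.59 ± 0.08 for PBMC-hCG (adjusted p = 2.7e-05). Between PBMC-hCG and IF it was 0.31 ± 0.08 (adjusted p = 0.029), with IF replicate 3 above PBMC-hCG replicate 1. After quantile normalization the adjusted p between IF and control was 0.089.

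C1ra, the gene of C1r, was higher in PBMC-hCG than in the control and IF mice. Control mice had 123, 123, 125, 118 and 126 TPM and IF mice 137, 133, 143, 122 and 124 TPM. The PBMC-hCG mice had 154, 175, 168, 161 and 158 TPM, each above every IF and control mouse. The log2 fold change of PBMC-hCG was 0.31 ± 0.07 against IF (adjusted p = 0.028) and 0.41 ± 0.07 against control (adjusted p = 0.00035). In the PBMC mice it ranged from 113 to 159 TPM. C1rl, the gene of a C1r-like protease at a mean of 3.58 TPM, was higher only between PBMC-hCG and control among the comparisons run (0.45 ± 0.14 on the log2 scale, adjusted p = 0.022). C1ra and C1s1 have near-identical neighbours, C1rb and C1s2, so reads may have been split between the copies.

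The lectin pathway proteases went the other way under RU486. Masp1 encodes MASP-1 and, by splicing, MASP-3, which gene-level values do not separate. Its values were 10.6, 9.54, 10.2, 11.6 and 8.1 TPM in the control mice and 5.29, 4.74, 7.2, 4.12 and 4.37 TPM in the IF mice, all of which lay below all control mice. PBMC mice had 7.3, 6.96, 4.99, 7.33 and 3.01 TPM and PBMC-hCG mice 5.56, 9.64, 10.8, 11.5 and 9.0 TPM. Only replicate 1 of the PBMC-hCG mice lay within the range of the IF mice. Masp1 fell by 0.96 ± 0.23 on the log2 scale between control and IF (adjusted p = 0.0058) and by 0.81 ± 0.23 between control and PBMC (adjusted p = 0.019). It was higher in PBMC-hCG than in IF by 0.83 ± 0.23 (adjusted p = 0.034). Between PBMC-hCG and control the difference was -0.13 ± 0.23, with a 95% interval of -0.62 to 0.35 (adjusted p = 0.7). Rtp4, an interferon-induced gene that overlaps Masp1 on the annotation, had a mean of 41.4 TPM.

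Masp2, the C4-cleaving protease of the lectin pathway, was near the lower limit of the values. It was listed at 0.245, 0.494, 0.167, 0.34 and 0.142 TPM in the control mice and at 0.0198, 0.14, 0.145, 0.141 and 0.0879 TPM in the IF mice, and the groups overlapped. The log2 fold change was -0.84 ± 0.25 between IF and control (adjusted p = 0.023). It was, without control replicate 2, which had the highest value, -0.65 (adjusted p = 0.054). The PBMC and PBMC-hCG groups had means of 0.108 ± 0.0511 and 0.109 ± 0.0441 TPM, and both were lower than control (adjusted p = 0.029 and 0.022), which no longer held without that mouse (0.064 and 0.050).

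C2, C3 and C4b stand where the pathways meet. C2, the protease subunit of the classical C3 convertase, was listed at 15.4, 21.6, 16.4, 13.5 and 13.5 TPM in the control mice and at 19.1, 15.4, 18.3, 16.5 and 14.7 TPM in the IF mice. The PBMC mice had 20.3, 20.5, 14.4, 24.2 and 18.7 TPM and the PBMC-hCG mice 21.8, 29.2, 25.7, 35.9 and 23.5 TPM. All PBMC-hCG mice lay above all control and IF mice, with replicate 1 lowest and replicate 4 highest. C2 was higher in PBMC-hCG than in IF by 0.68 ± 0.15 on the log2 scale (adjusted p = 0.026) and higher than in control by 0.76 ± 0.15 (adjusted p = 0.0012). Between IF and control the difference was 0.08 ± 0.15 (adjusted p = 0.77).

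C3, the central component, was listed at 216, 328, 175, 160.1 and 202 TPM in the control mice and at 235, 199, 252, 223 and 246 TPM in the IF mice. Among the PBMC mice the values were 243, 265, 247, 326 and 258 TPM, and among the PBMC-hCG mice 410.1, 431, 258, 361 and 328 TPM. Control replicate 2 was the highest control, and all PBMC-hCG mice lay above all IF mice. The log2 fold change of PBMC-hCG was 0.61 ± 0.16 against IF (adjusted p = 0.031) and 0.75 ± 0.16 against control (adjusted p = 0.0018). Between IF and control it was 0.14 ± 0.16 (adjusted p = 0.6). The differences from control were, without control replicate 2, 0.30 (adjusted p = 0.1) for IF, 0.51 (adjusted p = 0.0081) for PBMC and 0.91 (adjusted p = 4.7e-05) for PBMC-hCG, so that PBMC also passed.

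C4b, the second subunit of that convertase, varied little. Means were 76.6 ± 8.34 TPM in control, 83.6 ± 7.02 TPM in IF, 88.5 ± 8.53 TPM in the PBMC group and 90.1 ± 9.39 TPM in the PBMC-hCG group. It passed only between PBMC-hCG and control among the comparisons run (0.23 ± 0.09 on the log2 scale, adjusted p = 0.048), and without control replicate 2 that difference was 0.19 (adjusted p = 0.1). The near-identical copy C4a had a mean of 7.62 TPM, and reads may have been split between them.

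**Figure D3:**
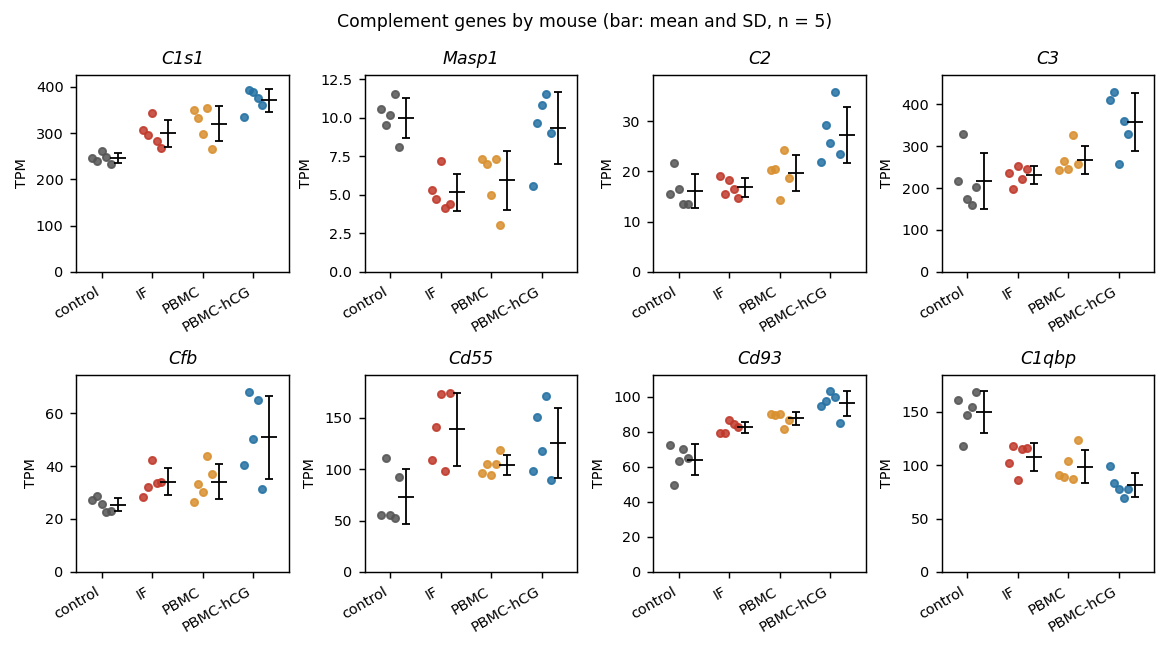
TPM of each mouse in the 4 groups for 8 complement genes, with the mean and SD (n = 5) beside the points and each axis starting at 0. C1s1 and Cd93 lie above the control mice in all 3 RU486 groups, C1qbp is lowest with PBMC-hCG, Masp1 is low in IF and PBMC but near control with PBMC-hCG, and C2 and C3 lie above IF with PBMC-hCG.

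Of the alternative pathway genes, Cfb rose and Cfp did not pass. Factor B, which Cfb encodes, forms the alternative C3 convertase. Cfb was listed at 27, 28.7, 25.8, 22.7 and 23.1 TPM in the control mice and at 28.4, 32.1, 42.3, 33.7 and 34 TPM in the IF mice. PBMC mice had 26.6, 33.2, 30.02, 43.7 and 36.8 TPM and PBMC-hCG mice 40.2, 67.9, 50.2, 64.8 and 31.4 TPM. All PBMC-hCG mice lay above all control mice, whereas replicates 1 and 5 lay within the IF range. The log2 fold change was 0.94 ± 0.18 between PBMC-hCG and control (adjusted p = 0.00064) and 0.53 ± 0.18 between PBMC-hCG and IF (adjusted p = 0.052). Cfp (properdin, which stabilizes that convertase) had means from 27.2 TPM in PBMC-hCG to 32.1 TPM in IF and passed in no comparison.

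Cfd, or adipsin, is the protease that cleaves factor B and is made mainly by fat cells. It was listed at 0 in 3 control, 4 IF, 2 PBMC and 1 PBMC-hCG libraries and was therefore not tested with the rest. The control mice had 0, 284, 21.2, 0 and 0 TPM and the IF mice 0, 0, 0, 0 and 74.9 TPM. The PBMC mice had 0, 3.5, 0.118, 27.9 and 0 TPM and the PBMC-hCG mice 5.03, 0.337, 2.15, 0 and 0.452 TPM. Fitted without the filter on low values, the difference between IF and control was -1.93 ± 2.42, adjusted p = 0.7. Adipoq, an adipocyte hormone, had 0, 42.1, 1.7, 0 and 0 TPM in the control mice. Over the 20 mice, after removing group means, Cfd and Adipoq had a Pearson r of 0.959 (permutation p = 3e-05, adjusted over 3 relations 9e-05) and a Spearman rho of 0.896 (permutation p = 0.00038, adjusted 0.0011). Without control replicate 2 and IF replicate 5, r was 0.934.

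**Figure D4:**
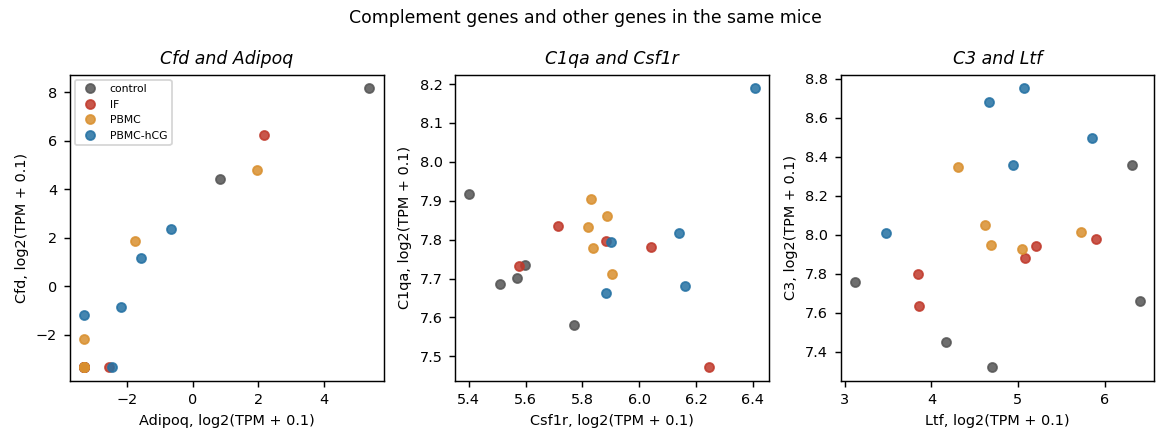
Log2(TPM + 0.1) of Cfd against Adipoq, C1qa against Csf1r and C3 against Ltf in the 20 mice, 1 point per mouse, coloured by group. The Cfd points follow Adipoq up to control replicate 2 at the top right, whereas the C1qa and C3 points show no such line.

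The other relations did not pass when pooled, and the sign of r differed between groups of 5 mice. C1qa and the macrophage receptor Csf1r had r = -0.055 (permutation p = 0.85, adjusted 0.85) and rho = -0.15 (permutation p = 0.58, adjusted 0.58), and r was -0.23 without IF replicate 3 and PBMC-hCG replicate 2. Within groups this r was below 0 in control, IF and PBMC and above 0 in PBMC-hCG. C3 and Ltf, a secreted uterine product that also responds to estrogen, had r = 0.450 (permutation p = 0.14, adjusted 0.20) and rho = 0.421 (permutation p = 0.11, adjusted 0.16). Without control replicates 1 and 5 that r was 0.609, and within groups it was below 0 in PBMC and above 0 in the other groups.

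None of the terminal components passed in any comparison. Hc, the gene of C5, ranged from 0.104 to 0.322 TPM in the control mice and from 0.162 to 0.328 TPM in the PBMC-hCG mice. C6, C7 and C8g encode other components of the terminal pathway. C6 had means of 1.1 ± 0.454 TPM in control and 1.81 ± 0.874 TPM in PBMC-hCG, and the log2 difference was 0.63 ± 0.32 (adjusted p = 0.14). C8g, which overlaps the more abundant Fbxw5, differed by 0.80 ± 0.32 between PBMC-hCG and IF (adjusted p = 0.086). C7 differed by at most 0.46 in any comparison.

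Among the soluble regulators, Serping1 rose in all 3 RU486 groups. Serping1 encodes the C1 inhibitor, which inactivates C1r, C1s and the MASPs. Control mice had 510.4, 502, 524, 476 and 526 TPM and IF mice 595, 632, 594, 599 and 681 TPM, without overlap. Among the PBMC mice the values were 684, 633, 597, 666 and 523 TPM, and among the PBMC-hCG mice 639.9, 691, 685, 729.5 and 625 TPM, where only PBMC replicate 5 reached the control range. Against control the log2 fold change was 0.29 ± 0.07 for IF (adjusted p = 0.0046), 0.28 ± 0.07 for PBMC (adjusted p = 0.0054) and 0.41 ± 0.07 for PBMC-hCG (adjusted p = 0.0002).

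Clu (clusterin, which blocks the terminal pore) depended on the library that stood apart. It was listed at 139.6, 863, 166, 171 and 435 TPM in the control mice and ranged from 436 to 569.7 TPM in the IF mice, 345 to 509.8 TPM in the PBMC mice and 289.8 to 448 TPM in the PBMC-hCG mice. Control replicates 2 and 5 were far above the other 3. The log2 fold change between IF and control was 0.85 ± 0.35 (adjusted p = 0.092). Without control replicate 2 it was 1.27 (adjusted p = 0.00086), and the differences of PBMC and PBMC-hCG from control were then 1.11 (adjusted p = 0.0028) and 0.86 (adjusted p = 0.0096). Cfi, the protease that inactivates C3b, was high in the same control mice (5.24, 42.4, 7.41, 9.49 and 38.9 TPM) and passed in no comparison, as did Vtn (vitronectin), whose means lay between 11.9 and 14.2 TPM.

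Of the membrane regulators, Cd55 changed most. Cd55 encodes decay-accelerating factor, which breaks up C3 convertases. Its values were 55.2, 110.5, 55.7, 52.6 and 92.8 TPM in the control mice and 109, 141, 173, 97.8 and 174 TPM in the IF mice. PBMC mice had 96, 105, 94.2, 106 and 119 TPM and PBMC-hCG mice 98.2, 151, 118, 171 and 89.9 TPM. Control replicates 2 and 5 were the highest controls, and replicate 2 lay within the IF range. The log2 fold change against control was 0.95 ± 0.22 for IF (adjusted p = 0.0044), 0.57 ± 0.22 for PBMC (adjusted p = 0.081) and 0.80 ± 0.22 for PBMC-hCG (adjusted p = 0.01). These became, without control replicate 2, 1.12 (adjusted p = 0.00069), 0.73 (adjusted p = 0.016) and 0.97 (adjusted p = 0.0015), so that PBMC passed as well. Between PBMC-hCG and IF the difference was -0.15 ± 0.22, with a 95% interval of -0.61 to 0.31 (adjusted p = 0.66).

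Cr1l (Crry) and Cd59a changed less. Cr1l, the rodent regulator of C3 and C4, was narrow within groups, at 70.4 ± 6.47 TPM in control, 77 ± 1.12 TPM in IF, 78.8 ± 2.05 TPM in the PBMC group and 79 ± 3.26 TPM in the PBMC-hCG group. It passed against control for PBMC (0.17 ± 0.05, adjusted p = 0.031) and PBMC-hCG (0.17 ± 0.05, adjusted p = 0.018), and for IF only without control replicate 2, at 0.17 (adjusted p = 0.01). Cd59a, which stops pore assembly, was higher in PBMC-hCG than in control by 0.34 ± 0.11 (adjusted p = 0.024). Its copy Cd59b had a mean of 3.84 TPM. Cd46, a low gene whose annotation overlaps Cr1l, differed by 0.56 ± 0.26 between PBMC-hCG and control (adjusted p = 0.11), or by 0.72 (adjusted p = 0.035) without control replicate 2.

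Among the receptors, Cd93 rose. Cd93 is a membrane protein of endothelial and myeloid cells that was first described as a C1q receptor. It was listed at 72.2, 49.6, 63.1, 70.1 and 65.3 TPM in the control mice and at 79.4, 79.2, 86.8, 84.4 and 82.8 TPM in the IF mice. The PBMC mice had 90.1, 89.7, 90.2, 81.7 and 86.8 TPM and the PBMC-hCG mice 95, 97.8, 103, 99.9 and 85 TPM. No control mouse overlapped with any mouse of the other groups. Against control the log2 fold change was 0.38 ± 0.08 for IF (adjusted p = 0.0021), 0.46 ± 0.08 for PBMC (adjusted p = 0.00039) and 0.59 ± 0.08 for PBMC-hCG (adjusted p = 3e-05). All 5 endothelial markers (Pecam1, Cdh5, Kdr, Tie1 and Emcn) were also higher in each of these comparisons. Their summed TPM was 342 to 459 in the control mice, 506 to 554 in the IF mice, 514 to 593 in the PBMC mice and 573 to 645 in the PBMC-hCG mice, and their part in the result for Cd93 was not tested.

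C1qbp was lower in each RU486 group than in control. It encodes a mostly mitochondrial protein that also binds the globular heads of C1q. Control mice had 161, 118, 147, 154 and 168 TPM and IF mice 102, 118, 86.3, 115 and 116 TPM. Among the PBMC mice the values were 90.8, 88.7, 104, 86.9 and 124 TPM, and among the PBMC-hCG mice 99.4, 83.2, 77.7, 69 and 77.5 TPM. Control replicate 2 was the lowest control and lay just above the highest IF mouse. Against control, C1qbp fell by 0.48 ± 0.12 on the log2 scale in IF (adjusted p = 0.0073), by 0.60 ± 0.12 in PBMC (adjusted p = 0.0014) and by 0.88 ± 0.12 in PBMC-hCG (adjusted p = 3.5e-05). Between IF and PBMC-hCG it fell by 0.40 ± 0.12 (adjusted p = 0.039). Rpain, a gene that overlaps it, had a mean of 22.0 TPM.

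Among the anaphylatoxin and iC3b receptors, C3ar1 and Itgb2 rose against control. C3ar1, the C3a receptor, was higher in PBMC-hCG than in control (0.49 ± 0.11 on the log2 scale, adjusted p = 0.0034), with no overlap of the groups. C5ar1, a C5a receptor, had means of 11.8 ± 1.29 TPM with PBMC and 8.42 ± 0.978 TPM with PBMC-hCG, and the difference did not pass (-0.48 ± 0.21, adjusted p = 0.29). C5ar2, the other C5a receptor, had means of 1.17 to 1.34 TPM and passed in no comparison. Itgb2 and Itgam encode the chains of complement receptor 3. Itgb2 was higher than in control for PBMC (0.32 ± 0.10, adjusted p = 0.032) and PBMC-hCG (0.30 ± 0.10, adjusted p = 0.033), and without control replicate 2 these became 0.28 (adjusted p = 0.062) and 0.25 (adjusted p = 0.065). Itgam differed by 0.36 ± 0.15 between IF and control (adjusted p = 0.086).

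28 other complement genes were listed from general knowledge of the pathway, with earlier results of these data known, and 13 of them were tested. In the IF group 3 of the 13 were higher than in control and 0 lower, beside 13.4% and 8.53% of all tested genes. Thbd (thrombomodulin, a cofactor that also aids inactivation of C3b) had a mean of 76.8 ± 8.39 TPM in control and 274 ± 26.3 TPM in IF, a log2 fold change of 1.84 ± 0.11 (adjusted p = 5e-09). Susd4, a membrane inhibitor of complement, was higher by 1.13 ± 0.31 (adjusted p = 0.013), and C1s2 by 0.32 ± 0.08 (adjusted p = 0.0089). Between PBMC-hCG and IF, C1rb and C1s2 were higher, by 0.30 ± 0.09 (adjusted p = 0.037) and 0.33 ± 0.08 (adjusted p = 0.029), beside 7.61% of all tested genes. Thbd and the lectin Fcna (ficolin A) fell in that comparison, by 0.43 ± 0.11 (adjusted p = 0.031) and 0.68 ± 0.18 (adjusted p = 0.031), beside 5.99% of all tested genes. As given above, calls in that comparison over all tested genes hung on the full set of mice. No gene of the 13 passed between PBMC and IF or between PBMC-hCG and PBMC in limma's test. Against control, 2 were higher with PBMC and 6 with PBMC-hCG, beside 12.8% and 20.2% of all tested genes, and 0 were lower, beside 6.7% and 11.6%.

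Crp, a pentraxin that binds C1q, was singled out after its values were seen. Its values were 5.13, 4.43, 4.03, 4.44 and 3.33 TPM in the control mice and 0.271 to 0.486 TPM in the IF mice, 0 to 0.353 TPM in the PBMC mice and 0.187 to 0.566 TPM in the PBMC-hCG mice. Every control mouse lay above every RU486 mouse. Fitted without the filter on low values, the log2 difference between IF and control was -3.25 ± 0.34, adjusted p = 5.7e-06.

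Markers of other cells moved with some of these results. Of 5 epithelial markers, 4 were higher in each RU486 group than in control, and 1 was higher in PBMC-hCG than in IF. Their summed TPM was 485 to 859 in the control mice, 722 to 931 in the IF mice and 859 to 1139 in the PBMC-hCG mice. All 3 mesothelial markers (Msln, Upk3b and Lrrn4) were higher in PBMC-hCG than in IF, beside 7.61% of all tested genes. Their summed levels were 62 to 88.5 TPM in PBMC-hCG and 34.8 to 52.4 TPM in IF. Between PBMC-hCG and IF, 1 of 5 stromal, 1 of 5 endothelial and 1 of 4 uterine markers were also higher, beside the same 7.61%. C1ra, C1s1, C2 and C3 rose in the same comparison, and the part of any of these markers in that rise was not tested. Over all tested genes, calls between these 2 groups hung on the full set of mice, as given above. Of 5 myometrial markers, 4 were lower in PBMC-hCG than in control and 1 was lower in IF. Of 5 stromal markers, 1 was higher in IF and 2 in each of PBMC and PBMC-hCG than in control. Neutrophil markers were higher for 1 of 4 in IF, 2 in PBMC and 1 in PBMC-hCG against control, and of 4 tested T, B and NK cell markers 1 was higher in PBMC-hCG. Of 3 red cell markers, 1 was lower in PBMC-hCG than in IF, and the only liver marker tested passed in no comparison, with Alb at a mean of 0.202 TPM. Of the 4 uterine markers, Pgr and Esr1 were higher and Hoxa10 and Hoxa11 lower in IF than in control. The 5 adipose markers were listed at 0 in some libraries and not tested.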

How the data were processed

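RNA of 1 uterine horn from each of 20 mice was measured in 4 groups of 5, and groups and replicate numbers were taken from the sample labels. The authors deposited TPM values per gene. Per the labels and the study's methods, stranded libraries of polyA RNA were trimmed with Trimmomatic, aligned to mm10 with HISAT2 and assembled with StringTie (versions not given in the sources used here). TPM scales each library to a fixed total and hides depth, and a gene that takes a larger share lowers the others. The study's exact test needs counts, so log2(TPM + 0.1) was fitted here with limma 3.58.1 in R 4.3.3 (variance trend, 4 groups in 1 fit) over the 18706 genes above 0 in all 20 libraries, after the study's own filter.

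The 33 genes, the role groups, the 28 other complement genes and 12 lists of cell type markers were chosen with earlier results of these data known. All 33 genes are accounted for by role. Values of every mouse are given in the text for genes with an adjusted p under 0.05, a fold change of at least 1.5 in a comparison and a mean of at least 1 TPM, which were C1s1, Masp1, C2, C3, Cfb, Cd55, Cd93 and C1qbp. C1ra, Masp2, Serping1, Clu, Cfi and Cfd were added after their values were seen. Of these added genes, Serping1 and Cfd are given for every mouse and the others for the mice of some groups only. Mice of 1 group were treated as replicates. Relations were tested with 100000 permutations within groups. Promoter windows and gene positions were those of RefSeq on GRCm38.p6. The method was tested on simulated data for IF against control, in which 200 of 18706 genes were changed. Of 100 genes changed by 1 on the log2 scale 83 were called, and of 100 changed by 2, 95 were called, with 5 false calls and 0 of the wrong sign. The simulated deviations were normal and drawn independently for each gene and mouse, with the spread of each gene. Deviations shared by many genes of 1 library were thus not simulated, so the 5 false calls do not give the error rate in these data. Alternatives were other pseudocounts, filters, scalings and fits, a replicate block, and each mouse left out in turn. No sequencing batch is given in the labels, and within-batch values could not be computed.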

Additional observations from a re-analysis of the deposited data

Results flagged for a closer look

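In 8 of the 128 sets of 5 mice examined (32 genes in 4 groups), 1 mouse lay far from the other 4 by Dixon's criterion, and chance alone gives about 1 in 20. C1qa in IF replicate 3 was 178 TPM, against 212 to 228 TPM in the other IF mice. C1qb was 169.7 TPM in the same mouse, against 200.1 to 212 TPM. C1qb was 267 TPM in PBMC-hCG replicate 2, against 197 to 213 TPM in the others. C1rl was 2.15 TPM in IF replicate 5, against 3.35 to 3.7 TPM. Hc was 0.104 TPM in control replicate 1, against 0.281 to 0.322 TPM. C6 was 2.63 TPM in IF replicate 3, against 1.03 to 1.24 TPM. Cfi was 40.1 TPM in PBMC-hCG replicate 4, against 10.5 to 13.7 TPM. Cd46 was 3.28 TPM in control replicate 2, against 1.76 to 1.97 TPM. Of these genes, only C1rl passed in any of the 6 comparisons, between PBMC-hCG and control.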

How the results depend on the processing

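The number of complement genes called moved by more than 1.5 times under 3 of the alternatives, beside the leaving out of mice. Between PBMC-hCG and IF it was 6 (beside 13.6% of all tested genes), and it became 3 (2.65%) with no filter on low values and 10 (17.2%) with the replicate block. Between PBMC and control it was 9 (19.5%), and it became 5 (13.5%) when only those 10 mice were fitted. Under the replicate block, which fits same-numbered mice as pairs, 7 genes passed between IF and control, 8 between PBMC and control and 16 between PBMC-hCG and control, beside 22.2%, 19.4% and 32.5% of all tested genes. The labels do not say that a number marks a shared litter or day. The 30 pairs of same-numbered mice had correlations of their deviations between -0.25 and 0.46, with a median of -0.0097, and 2 of 20 mice correlated best with a mouse of their own number, so the numbers were not taken to pair the mice.

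With 1 mouse at a time left out, 6 to 9 complement genes passed between IF and control, 0 to 12 between PBMC-hCG and IF, 5 to 11 between PBMC and control and 12 to 16 between PBMC-hCG and control. The shares of all tested genes moved as well, over 17.8% to 26.8%, 0% to 27.1%, 15.8% to 24.7% and 25.4% to 40.2%, respectively. The range was 0 to 0 for PBMC against IF and for PBMC-hCG against PBMC. Between PBMC and control the 5 came without control replicate 4 or PBMC replicate 4. Between PBMC-hCG and IF, C1s1, Masp1, C2, C3 and C1qbp each lost their call without any 1 of IF replicates 2, 4 and 5 or PBMC-hCG replicates 2 to 5. Between IF and control, Masp1, Cd55, Cd93 and C1qbp passed under all 19 alternatives, whereas C1s1 did not pass after quantile normalization. Over all of these genes, alternatives and comparisons, 862 values kept their side of the threshold, 39 no longer passed and 11 newly passed. Of the values that passed in the main fit or in the alternative, 0 changed direction. Changes of direction among values that passed in neither were not counted. As depth is unknown, changes in Masp2, Hc and the terminal components, all at low TPM, are the least certain.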
